A study of Homo sapiens with 6 samples.

Results

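Glycolysis is the chain of cytosolic enzymes that splits glucose into pyruvate, and the genes described here are its enzymes together with the carriers that bring sugar into the cell and take lactate out. They were taken by gene symbol, step by step and isoform by isoform. All 32 were found in the deposited table of 30741 genes. The samples were MOLM-13 cells, an established human acute myeloid leukaemia line labelled as wild type. Cells received 20 nM TSN, taken here as the toosendanin named in the title of the series, or the solvent DMSO for 48 h, and all were grown in the same medium with serum. Each group held 3 libraries described as biological replicates, and nothing else in the labels separates them. Sample titles gave the groups, since the treatment field reads DMSO on all 6 samples. The table heads its DMSO columns with another code (M0), which was read as DMSO because no other group remained, and every comparison rests on that reading.

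Most steps of glycolysis can be carried out by several isoforms, which different tissues and states use in different proportions. Entry of glucose, its phosphorylation by hexokinase, the phosphofructokinase step and the pyruvate kinase step are the classical points of control. The PFKFB enzymes make and remove fructose-2,6-bisphosphate, an activator of phosphofructokinase. Both MYC and the hypoxia-inducible factor HIF1A are known to drive many of these genes, and leukaemia cells commonly run glycolysis at a high rate even in oxygen. The values are RNA levels in FPKM, a fragment density that is corrected for exon length and library size. Isoforms can thus be compared by level only where their reads were neither shared with other genes nor lost. Neither protein nor flux was measured. In bulk RNA, fewer cells with a transcript and less of it per cell cannot be told apart.

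Estimated depth was 37157599 to 50408702 fragments per library, so that 1 fragment on 1 kb of exon was worth 0.0198 to 0.0269 FPKM. Of 10 genes listed as markers of this leukaemia, 9 reached 1 FPKM in at least 3 libraries, with CD33 at 8.87 to 10.1 FPKM. HOXA9 did so through the TSN libraries alone, with 0.613 to 0.663 FPKM in DMSO and 1.065 to 1.134 FPKM in TSN. MEIS1, typical of leukaemias with a KMT2A fusion, stayed at 0.140 to 0.469 FPKM. Of the 9 that were tested, 1 was higher by limma and 0 were lower, with 5 fold changes above 0 and 4 below. That gene was ITGAM, an integrin of maturing myeloid cells (3.24 against 11.7 FPKM, limma adjusted p = 0.00789). Summed erythroid, megakaryocytic and epithelial or fibroblast markers stood at 12.3 FPKM or less per list in every library. The erythroid sum was 4.90 to 6.43 FPKM in DMSO and 3.03 to 4.46 FPKM in TSN. The megakaryocytic sum was 2.34 to 2.83 and 3.38 to 5.19 FPKM, and the epithelial or fibroblast sum 8.04 to 8.64 and 8.99 to 12.3 FPKM. ITGA2B, the 1 megakaryocytic marker tested, was higher by limma (1.61 against 3.16 FPKM, limma adjusted p = 0.0209). Summed lymphoid markers were 27.3 to 34.0 FPKM in DMSO and 84.4 to 215.5 FPKM in TSN. Most of that sum was NKG7, a cytotoxic granule protein gene (20.6 to 26.8 against 76.8 to 199.7 FPKM), and 2 of the 4 lymphoid markers tested were higher by limma, NKG7 and CD3D. CD3D, a T-cell receptor chain gene, was at 0.962, 1.06 and 0.892 FPKM in DMSO and 2.31, 1.82 and 2.95 FPKM in TSN (limma adjusted p = 0.0251). All 4 had a log2 fold change above 0, and CD3E, its partner, was at or below 0.194 FPKM throughout. TSN 3 stood apart from the other libraries, with a median level over tested genes of 2.97 on the log2(FPKM + 1) scale against 3.30 to 3.46 elsewhere. The part of these shifts in the results below was not tested, except where values without a library are given.

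After TSN, 5 members rose and 0 fell at an adjusted p under 0.05 by limma, a linear model with shared variance that was fitted to log2(FPKM + 1) over all 11440 genes kept. Those that rose were the glucose carrier SLC2A3, the regulator PFKFB4, the aldolase ALDOC, the enolase ENO2 and pyruvate kinase PKM. At an unadjusted p under 0.05 the counts were 13 higher and 1 lower, beside 1564 higher and 1960 lower of all 11440 genes. The filter of at least 1 FPKM in at least 3 libraries kept 27 of the 32 members and left out HK3, PFKFB2, LDHA, PDK2 and SLC16A1. With no filter all 32 were tested, and the same 5 rose and 0 fell. ENO2 met the filter through the TSN libraries alone, and the other 4 that rose reached 1 FPKM in both groups. The 5 make up 18.5% of the 27 tested, beside 7.71% of all genes that rose and 7.20% that fell. The groups were apart in 39.2% of all genes, in either direction. In 13 members all TSN libraries lay above all DMSO libraries, against 16.2% of all genes, and in 1 member, BPGM, all lay below, against 22.9%. The log2 fold change was above 0 in 25 of 27 members (92.6%), as it was in 41.8% of all genes. The median was 0.49 for the members and -0.10 over all genes.

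**Figure D1:**
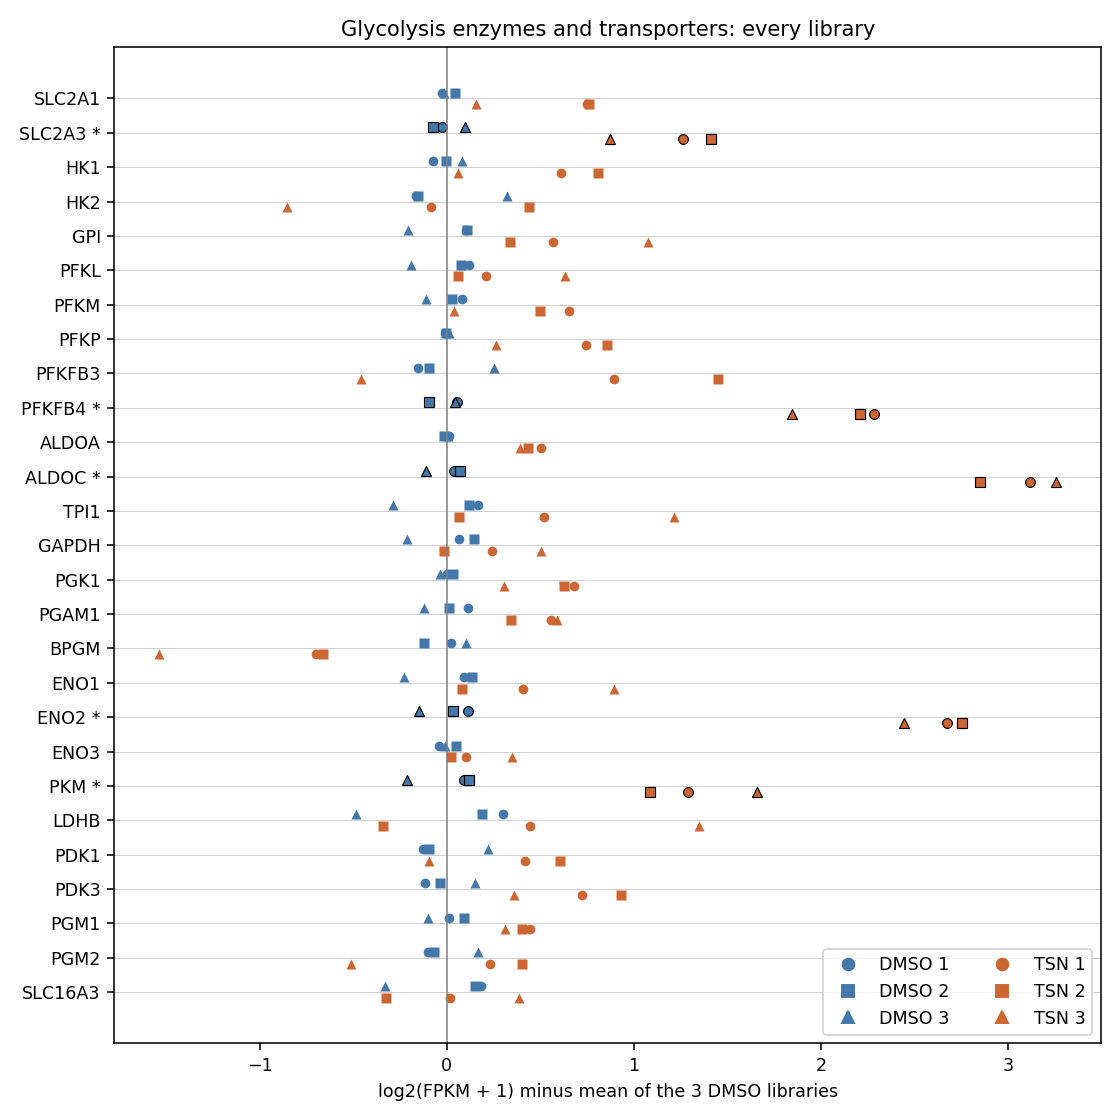
Each row is 1 of the 27 tested members and each symbol 1 library, on the log2(FPKM + 1) scale relative to the mean of the 3 DMSO libraries. Blue symbols are DMSO, orange symbols are TSN, and asterisks with black outlines mark the 5 members with an adjusted p under 0.05. Most orange symbols lie right of 0, BPGM lies left of it, and TSN 3 (orange triangles) is an end point of the TSN group in every row.

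ALDOC, the aldolase isoform best known from brain, cleaves fructose-1,6-bisphosphate like its relative ALDOA. The gene (ENSG00000109107) lies on chromosome 17, from 28573115 to 28577264 in GENCODE 29 on GRCh38. Its level was 8.06, 8.28 and 7.17 FPKM in DMSO 1, 2 and 3, and 75.7, 62.6 and 83.5 FPKM in TSN 1, 2 and 3. Every TSN library stood far above every DMSO library. The ratio of the means was 9.43, and the log2 fold change was 3.08 ± 0.15 SE (limma adjusted p = 0.000438). Exons of ALDOC share 10.1% of their bases with a gene on the opposite strand, and the sources do not say whether reads were counted by strand.

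ENO2, the enolase isoform long used as a marker of neurons, catalyses the next-to-last step. It lies on chromosome 12, from 6913745 to 6923698. The DMSO libraries held 0.690, 0.595 and 0.409 FPKM, and the TSN libraries 8.98, 9.54 and 7.49 FPKM. The gene thus went from under 1 FPKM to a level that no DMSO library approached, with a ratio of means of 15.3. On the log2(FPKM + 1) scale the fold change was 2.63 ± 0.15 SE (limma adjusted p = 0.000679), and with a pseudocount of 0.01 it was 3.94, because a pseudocount of 1 compresses low genes. ENO2 reached 1 FPKM in the TSN libraries alone and so met the filter through them, but with no filter on low values it was called as well.

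PFKFB4 belongs to the bifunctional enzymes that set the level of fructose-2,6-bisphosphate. It lies on chromosome 3, from 48517684 to 48562015. Its level was 4.31, 3.78 and 4.28 FPKM in the DMSO libraries and 23.9, 22.7 and 17.4 FPKM in the TSN libraries. Again no library of one group reached the other, and the ratio of the means was 5.17. The log2 fold change was 2.11 ± 0.17 SE (limma adjusted p = 0.00186).

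PKM, pyruvate kinase of most tissues outside liver and red cells, makes pyruvate and ATP in the final step. It lies on chromosome 15, from 72199029 to 72231822, and the gene value does not separate its M1 and M2 splice forms. The DMSO libraries held 312.2, 318.1 and 252.8 FPKM and the TSN libraries 716.6, 623.0 and 924.7 FPKM. The groups did not overlap, and TSN 3 was the highest library. The log2 fold change was 1.34 ± 0.20 SE (limma adjusted p = 0.0102). Without any 1 of DMSO 1, DMSO 2, DMSO 3 or TSN 1, the limma adjusted p rose to 0.0551 to 0.0609, while the fold change stayed between 1.24 and 1.40.

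SLC2A3 (GLUT3), a glucose carrier of high affinity, lies on chromosome 12, from 7919230 to 7936275. Its level was 21.2, 20.5 and 23.2 FPKM in the DMSO libraries and 53.2, 59.1 and 40.4 FPKM in the TSN libraries. All TSN values were above all DMSO values, with TSN 3 the lowest of the treated libraries. The log2 fold change was 1.18 ± 0.17 SE (limma adjusted p = 0.00895). That p was 0.0601 without DMSO 1, 0.0628 without DMSO 2 and 0.0609 without TSN 1. SLC2A14, a close copy that could share reads, was at 0.0392 to 0.186 FPKM.

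**Figure D2:**
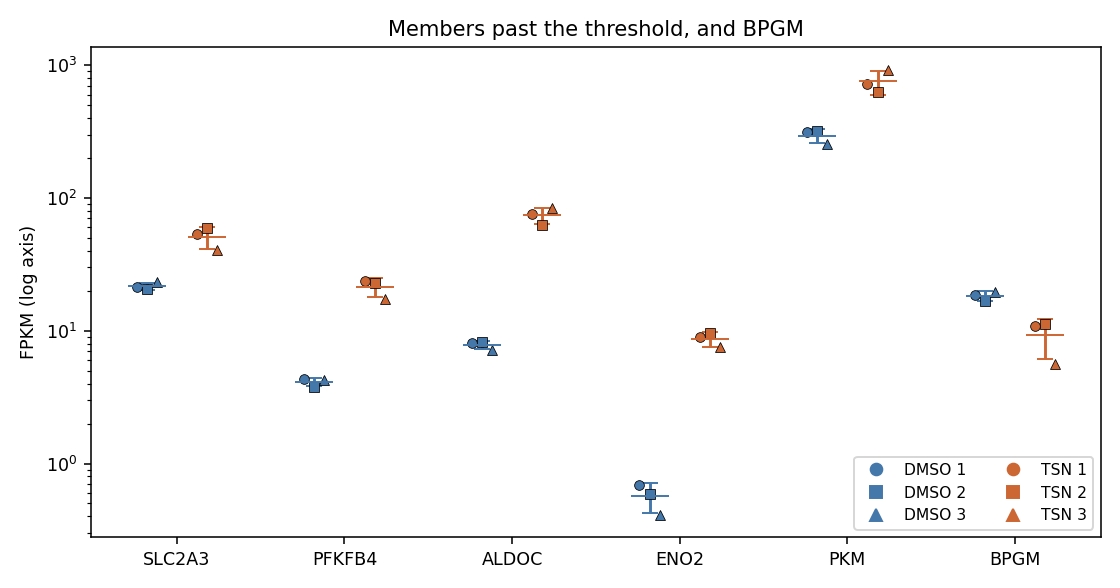
FPKM on a log axis for the 5 members that passed the threshold and for BPGM, with 1 symbol per library, the mean as a horizontal bar and the SD over 3 libraries as the vertical bar. The groups are apart in all 6 genes, and ENO2 starts from the lowest level, a mean of 0.565 FPKM in DMSO.

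Of the 5 genes that rose, 4 have an entry among the RefSeq promoter windows (250 bases before to 50 after the transcript start, GRCh38.p14). They are shown because these are members whose RNA passed the test. Each line gives the 250 bases before the start, 5′ to 3′ on the strand of the gene, and capitals mark matches on either strand to 4 motifs. These were ACGTG, the core of the hypoxia response element; CACGTG, the E-box that MYC can bind, which always contains ACGTG; TCACNCCAC, a form of the sterol response element; and GGGCGG, the GC box.
ALDOC chr17:28576896-28577145 (- strand): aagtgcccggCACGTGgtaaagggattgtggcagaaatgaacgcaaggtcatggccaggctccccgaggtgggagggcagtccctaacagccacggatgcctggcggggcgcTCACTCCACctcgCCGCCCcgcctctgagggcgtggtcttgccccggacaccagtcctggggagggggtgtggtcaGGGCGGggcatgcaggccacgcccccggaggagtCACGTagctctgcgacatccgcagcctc
ENO2 chr12:6914330-6914579 (+ strand): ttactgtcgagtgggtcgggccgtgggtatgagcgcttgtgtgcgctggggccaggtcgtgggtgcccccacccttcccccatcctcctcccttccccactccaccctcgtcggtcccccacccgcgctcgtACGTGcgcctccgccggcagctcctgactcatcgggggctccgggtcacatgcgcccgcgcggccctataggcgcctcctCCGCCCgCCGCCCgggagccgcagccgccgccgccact
PFKFB4 chr3:48556804-48557053 (- strand): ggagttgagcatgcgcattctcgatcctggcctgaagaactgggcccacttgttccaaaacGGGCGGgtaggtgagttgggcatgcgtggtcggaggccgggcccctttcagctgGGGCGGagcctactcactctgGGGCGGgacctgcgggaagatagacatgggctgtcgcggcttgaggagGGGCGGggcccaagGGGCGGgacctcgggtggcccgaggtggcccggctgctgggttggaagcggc
PKM chr15:72231191-72231440 (- strand): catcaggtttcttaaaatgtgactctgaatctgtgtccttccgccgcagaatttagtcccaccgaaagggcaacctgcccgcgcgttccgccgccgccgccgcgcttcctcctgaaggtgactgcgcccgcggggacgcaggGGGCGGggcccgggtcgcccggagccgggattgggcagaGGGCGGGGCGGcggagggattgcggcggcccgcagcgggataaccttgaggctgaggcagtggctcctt

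ACGTG stood in the ALDOC window at the E-box, bases -240 to -235 from the start, and again at bases -28 to -24, and in the ENO2 window at bases -118 to -114. Neither the PFKFB4 nor the PKM window held it, and both held GC boxes. All printed windows lie inside the GENCODE spans given above, so each precedes a start within the gene as placed there. For PFKFB4, on the - strand, the window runs from 48556804 to 48557053 and the span ends at 48562015. Bases beyond the outer ends of these spans were not searched. ALDOC also held TCACNCCAC at bases -138 to -130, the only member window to do so. Over the 60 windows of the 29 members with an entry, 38.3% held ACGTG, 13.3% CACGTG, 1.7% TCACNCCAC and 65.0% GGGCGG. Over all 35116 windows the shares were 21.4%, 7.3%, 1.1% and 45.0%. Several members have more than 1 window. A match only describes letters, and binding of a factor was not measured.

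At sugar entry, both glucose carriers stood above DMSO in every TSN library. SLC2A1 (GLUT1), the common glucose carrier of growing cells, had 17.99, 18.9 and 18.1 FPKM in DMSO and 31.5, 31.7 and 20.5 FPKM in TSN. The groups were apart, but TSN 3 stood close to the DMSO range, and the log2 fold change of 0.56 ± 0.19 SE did not pass (limma adjusted p = 0.107). Without TSN 3 it was 0.75 with a limma adjusted p of 0.00471, and without DMSO 3 and TSN 3 together it also passed. Leaving out any other single library did not bring SLC2A1 past the threshold (limma adjusted p from 0.150 to 0.305). SLC2A3 took 54.1% ± 2.07 (SD, n = 3) of the summed FPKM of both carriers in DMSO and 64.8% ± 1.77 in TSN. This share was higher in every TSN library, though an exact two-sided permutation test of 3 against 3 libraries cannot go below p = 0.1, and its p after adjustment over the 27 isoform shares computed was 0.208. The same values hold for each share given below whose groups are apart.

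HK2, the inducible hexokinase of tumour cells, held 33.1, 33.3 and 46.8 FPKM in DMSO and 35.1, 50.9 and 20.2 FPKM in TSN. The groups overlapped, and the spread inside TSN was larger than the distance between the means (log2 fold change -0.17 ± 0.34 SE, limma adjusted p = 0.774). Without TSN 3 its fold change turned to 0.18. HK1, the housekeeping hexokinase, had 9.71, 10.2 and 10.9 FPKM in DMSO and 16.2, 18.7 and 10.8 FPKM in TSN (0.49 ± 0.22 SE, limma adjusted p = 0.180). As a share of the 3 hexokinases, HK1 was at 18.9% to 23.4% in DMSO and at 26.9% to 34.6% in TSN, and HK2 was below its DMSO range in every TSN library. HK3, a hexokinase of mature granulocytes, was at or below 0.195 FPKM in all libraries. Of the phosphoglucomutases, which link glycolysis to glycogen, PGM1 was at 26.9, 28.6 and 24.8 FPKM in DMSO and 36.7, 35.7 and 33.3 FPKM in TSN. Its groups were apart, with a log2 fold change of 0.39 ± 0.12 SE (limma adjusted p = 0.0847). PGM2 overlapped between the groups (limma adjusted p = 0.931).

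At the phosphofructokinase step, the committed step of glycolysis, the sum of the 3 subunit genes was 86.1 ± 6.84 FPKM in DMSO and 116.3 ± 6.34 FPKM in TSN. The groups were apart, but the exact permutation p was 0.1, the lowest possible, and 0.2 after adjustment over 16 step totals. PFKL, the liver-type subunit and the most abundant here, was at 62.9, 61.1 and 50.5 FPKM against 67.2, 60.4 and 90.1 FPKM, with overlap (limma adjusted p = 0.330). PFKP, the platelet-type subunit, was at 23.9, 24.0 and 24.3 FPKM in DMSO and 41.0, 44.4 and 29.1 FPKM in TSN (0.62 ± 0.18 SE, limma adjusted p = 0.0662). Its groups were apart, and without TSN 3 the limma adjusted p was 0.00425. Leaving out any other single library gave limma adjusted p from 0.0953 to 0.218. PFKM, the muscle-type subunit, ran from 3.53 to 4.18 FPKM in DMSO and from 4.03 to 6.70 FPKM in TSN.

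Among the PFKFB enzymes, PFKFB4 had a larger share in every TSN library than in any DMSO library. PFKFB3, whose kinase activity dominates, held 10.2, 10.7 and 13.9 FPKM in DMSO and 22.2, 33.2 and 8.08 FPKM in TSN. TSN 1 and TSN 2 lay above and TSN 3 below the DMSO range, so no difference could be shown (log2 fold change 0.63 ± 0.47 SE, limma adjusted p = 0.413). PFKFB4 made up 23.5% to 29.6% of the summed FPKM of the family in DMSO and 40.6% to 68.1% in TSN, and PFKFB3 most of the remainder. PFKFB2, a form known from heart, was at 0.0212 and 0.0238 FPKM in DMSO 1 and 2, was listed at 0 in DMSO 3, and was at 0.0505, 0.0575 and 0.0374 FPKM in TSN, all below the filter.

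**Figure D3:**
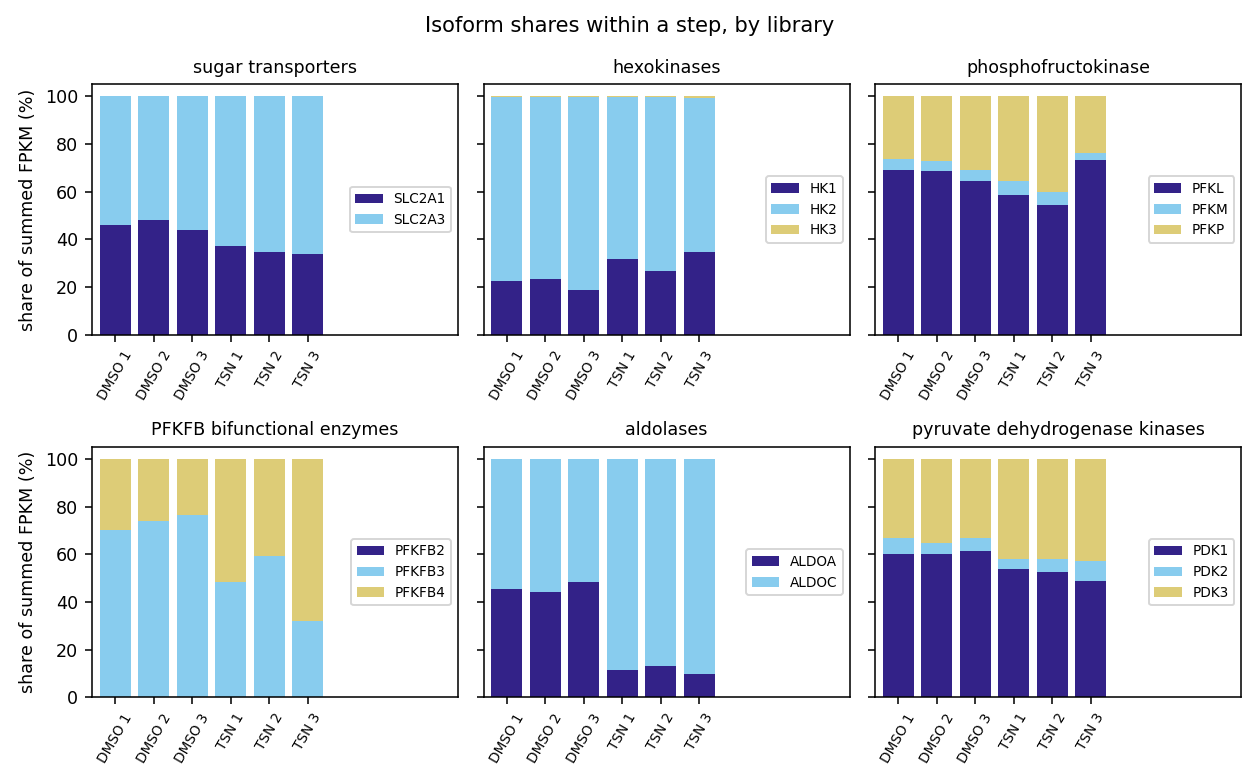
Bars give the share in percent of each isoform in the summed FPKM of its step, with 1 bar per library and 6 of the steps that have several isoforms. ALDOC went from 51.7% to 55.7% in DMSO to 87.0% to 90.2% in TSN, PFKFB4 and SLC2A3 also took larger shares in every TSN library, and the phosphofructokinase subunits overlapped between the groups.

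GPI, which turns glucose-6-phosphate into fructose-6-phosphate, held 48.2, 48.4 and 38.6 FPKM in DMSO and 66.9, 57.0 and 95.6 FPKM in TSN. The groups were apart, and the log2 fold change was 0.66 ± 0.22 SE (limma adjusted p = 0.0950). ALDOA, the ubiquitous aldolase, had 6.71, 6.58 and 6.69 FPKM against 9.86, 9.35 and 9.03 FPKM. Its groups were also apart, and the log2 fold change was 0.44 ± 0.13 SE (limma adjusted p = 0.0669). The exons of ALDOA share 53.5% of their bases with other annotated genes, mostly AC093512.2 on the same strand, so the level of ALDOA and the aldolase shares are uncertain.

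Among the abundant enzymes of the later steps, TSN 3 was often the highest library. TPI1, which interconverts the triose phosphates, held 614.5, 594.5 and 449.0 FPKM in DMSO and 785.9, 573.6 and 1270 FPKM in TSN, with overlap (limma adjusted p = 0.253). GAPDH, often used as a reference gene, held 1979, 2095 and 1632 FPKM in DMSO and 2232, 1875 and 2684 FPKM in TSN. Its groups overlapped, and the log2 fold change of 0.24 ± 0.21 SE did not pass (limma adjusted p = 0.477). GAPDH exons share 14.2% of their bases with a gene on the opposite strand, the same limit as for ALDOC. ENO1, the main enolase, held 1196, 1235 and 959.6 FPKM against 1493, 1188 and 2085 FPKM (limma adjusted p = 0.269). In all 3 genes TSN 3 was the highest library and DMSO 3 the lowest, and only TSN 2 lay inside the DMSO range.

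PGK1, which makes the first ATP of the pathway, was tighter, with 147.5, 150.7 and 143.9 FPKM in DMSO and 236.2, 227.7 and 182.4 FPKM in TSN. PGAM1, the phosphoglycerate mutase, had 446.0, 414.8 and 378.6 FPKM in DMSO and 606.3, 523.7 and 621.4 FPKM in TSN. Neither gene overlapped between the groups, with log2 fold changes of 0.54 ± 0.15 SE and 0.50 ± 0.16 SE and limma adjusted p of 0.0594 and 0.0799. ENO3, the muscle enolase, overlapped at 13.4 to 14.3 FPKM in DMSO and 14.0 to 17.8 FPKM in TSN (limma adjusted p = 0.494). ENO2, for all its fold change, was 0.578% ± 0.217 of the summed enolase FPKM in TSN, beside 0.0489% ± 0.00759 in DMSO, and ENO1 carried 98.1% to 98.8% of it in every library.

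BPGM was the single member below its controls in every TSN library. It makes 2,3-bisphosphoglycerate, a side product of glycolysis that lowers the oxygen affinity of haemoglobin in red cells, and lies on chromosome 7, from 134646808 to 134679813. Its level was 18.6, 16.7 and 19.7 FPKM in DMSO and 10.9, 11.2 and 5.64 FPKM in TSN. The log2 fold change was -0.97 ± 0.26 SE with a limma adjusted p of 0.0541, just short of the threshold. It was -0.68 without TSN 3, with a limma adjusted p of 0.0111, and 7 of 16 alternative settings put the gene past the threshold as lower.

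Around pyruvate and lactate, little beyond PKM could be shown. LDHB, the lactate dehydrogenase subunit of heart, was at 26.1, 24.0 and 14.7 FPKM in DMSO and 28.9, 16.4 and 55.0 FPKM in TSN, with TSN 2 inside the DMSO range and the others above it (limma adjusted p = 0.502). Exons of LDHB share 33.4% of their bases with another gene on the same strand. LDHA, the subunit of muscle and of most growing cells, was at 0.313, 0.386 and 0.360 FPKM in DMSO and 0.584, 0.887 and 0.296 FPKM in TSN, below the filter. Such a level is far under that of the enzymes before it, and whether reads of LDHA were lost in mapping or counting was not tested, so its value may understate the gene. SLC16A1 (MCT1), the widespread lactate carrier, was at or below 0.0413 FPKM and listed at 0 in TSN 1, with the same limit. SLC16A3 (MCT4), the lactate exporter of glycolytic cells, held 76.9, 75.2 and 53.6 FPKM in DMSO and 68.5, 53.9 and 88.8 FPKM in TSN, and the groups overlapped throughout (limma adjusted p = 0.952).

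The pyruvate dehydrogenase kinases hold pyruvate back from the mitochondrion by switching off pyruvate dehydrogenase. PDK3 had 1.57, 1.72 and 2.09 FPKM in DMSO and 3.60, 4.32 and 2.58 FPKM in TSN, with no overlap (0.67 ± 0.18 SE, limma adjusted p = 0.0568). Its share of the summed kinases was 33.0% to 35.2% in DMSO and 42.0% to 43.0% in TSN. PDK1, a known hypoxia target, overlapped at 2.85 to 3.90 and 2.93 to 5.38 FPKM (limma adjusted p = 0.390). PDK2 was below the filter, at 0.327, 0.236 and 0.344 FPKM in DMSO and 0.366, 0.544 and 0.488 FPKM in TSN, with no overlap. Exons of PDK2 share 38.6% of their bases with other genes.

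TSN 3 was an end point of its group in every tested member. The share of all genes with TSN 3 as an end point was not computed, so this is not shown to be particular to the members. Over all 11440 genes TSN 3 lay above its group mean in 34.2%, beside 11 members above and 16 below. Over those genes the deviations of DMSO 3 and TSN 3 from their group means correlated at -0.83. TSN 3 was the highest TSN library in 11 members, among them GPI, TPI1, GAPDH, ENO1, PKM and LDHB, and in 10 of these DMSO 3 was the lowest DMSO library. It was the lowest TSN library in the other 16, among them both glucose carriers, HK1, HK2 and PFKFB3, and there DMSO 3 was the highest DMSO library in 9 and the lowest in 4. The median exon length was 4292 bases in the first set and 5232 in the second, and the median GC content of the transcripts 56.2% and 51.2%. Without TSN 3, 14 members were higher and 1, BPGM, was lower by limma. Without both DMSO 3 and TSN 3 the counts were 16 and 1, and with each library's trend over exon length and GC content removed they were 13 and 1. Calls grew over all 11440 genes as well, from 882 higher and 824 lower with all libraries. They were 1481 and 1342 without TSN 3 and 1712 and 1587 without both, and they also grew with the trends removed. The growth is thus not particular to the members. With both numbered 3 left out, the members' median log2 fold change was 0.47, beside -0.0018 for all genes. SLC2A3, PFKFB4, ALDOC, ENO2 and PKM were called in each of these 3 fits, as they were with all libraries.

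Genes next to glycolysis were read from 8 lists, each set beside the same 7.71% higher and 7.20% lower of all genes. For list counts at an unadjusted p under 0.05, the counts over all 11440 genes were 1564 higher and 1960 lower. Hypoxia targets outside glycolysis rose in 8 of 14 tested genes and fell in 0 by limma (9 and 0 at an unadjusted p under 0.05). The median log2 fold change was 0.77. The mitophagy receptor BNIP3 went up from 42.6 ± 4.61 to 116.2 ± 6.05 FPKM (log2 fold change 1.43 ± 0.13 SE, limma adjusted p = 0.00270). P4HA1, a collagen prolyl hydroxylase subunit, rose from 30.6 ± 0.605 to 79.2 ± 14.8 FPKM (limma adjusted p = 0.00615). With single libraries left out, fewer rose for most: 3 when DMSO 1 was dropped, 2 for DMSO 2, 4 for DMSO 3 and 4 for TSN 1, but 7 for TSN 2 and 10 for TSN 3. With no filter on low values 5 rose. Of the 8, 2 reached 1 FPKM in the TSN libraries alone and met the filter through them. VEGFA, the vascular growth factor, was among those that did not pass, at 11.7 to 14.8 FPKM in DMSO and 6.43 to 15.9 FPKM in TSN.

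Of 14 regulators of glycolytic genes that could be tested, 4 fell and 0 rose by limma (5 and 0 at an unadjusted p under 0.05), and the median was -0.30. MYC fell from 211.5 ± 3.13 to 86.6 ± 8.38 FPKM (-1.28 ± 0.13 SE, limma adjusted p = 0.00361). MLX, the partner of the glucose-sensing factors MLXIP and MLXIPL, fell from 47.8 ± 1.84 to 27.4 ± 3.42 FPKM (limma adjusted p = 0.0153). TXNIP, an arrestin that restrains glucose uptake, fell from 198.5 ± 5.93 to 120.1 ± 19.8 FPKM (limma adjusted p = 0.0305). EGLN2, a prolyl hydroxylase that marks HIF proteins for decay, was the other and is named beyond the rule after its value was seen. It fell from 5.26 ± 0.712 to 2.16 ± 1.03 FPKM (-1.03 ± 0.26 SE), close to the threshold (limma adjusted p = 0.0454). HIF1A itself was at 11.96 to 16.2 FPKM in DMSO and 14.0 to 26.2 FPKM in TSN, with overlap (limma adjusted p = 0.211). With 1 library left out, 1 to 5 regulators fell: 1 when any DMSO library or TSN 1 was dropped, 5 for TSN 2 and 4 for TSN 3. With no filter on low values 1 fell.

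In glycogen metabolism 3 of 11 tested genes rose and 0 fell by limma (4 and 1 at an unadjusted p under 0.05). The branching enzyme GBE1 rose from 30.3 ± 2.46 to 57.1 ± 12.99 FPKM (limma adjusted p = 0.0336). The glycogen primer GYG1 rose from 9.36 ± 0.699 to 14.1 ± 0.914 FPKM, and the muscle phosphorylase PYGM from 0.731 ± 0.0150 to 1.38 ± 0.153 FPKM (limma adjusted p = 0.0436 and 0.0396). PYGM reached 1 FPKM in the TSN libraries alone and so met the filter through them. When any DMSO library, TSN 1 or TSN 2 was dropped, 0 genes of the list rose by limma, as with no filter on low values, and when TSN 3 was dropped 3 did. Of 10 genes that bring pyruvate into the mitochondrion and oxidise it, MPC2, a subunit of the pyruvate carrier, went up from 7.29 ± 1.16 to 16.2 ± 4.19 FPKM (log2 fold change 1.04 ± 0.22 SE, limma adjusted p = 0.0284), and 0 fell (2 at an unadjusted p under 0.05). MPC2 too was not called when any DMSO library or TSN 1 was dropped, nor with no filter on low values.

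**Figure D4:**
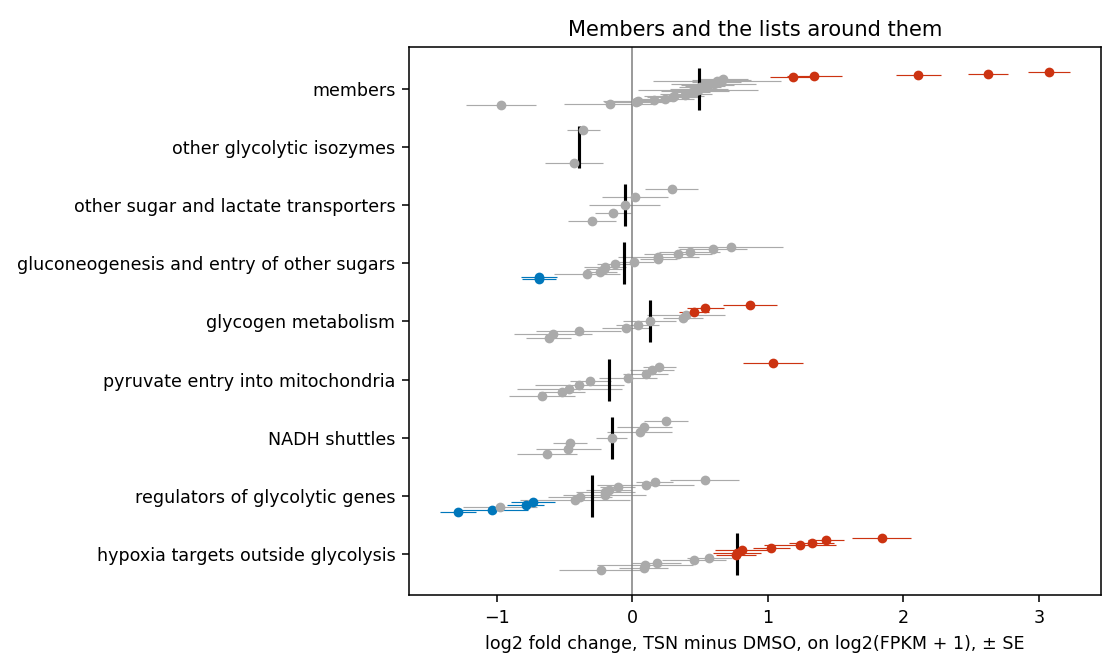
Points are the log2 fold changes (TSN minus DMSO, on log2(FPKM + 1)) with SE for the tested members and for the 8 lists around them, red where higher, blue where lower and grey where not past an adjusted p of 0.05, and black bars are medians. The members and the hypoxia targets lie mostly right of 0, with medians of 0.49 and 0.77, and the regulators mostly left, with a median of -0.30.

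Entry of other sugars and gluconeogenesis had 2 lower and 0 higher of 14 by limma (also 2 and 0 at an unadjusted p under 0.05). Both act on mannose phosphates: MPI fell from 13.2 ± 0.537 to 7.79 ± 0.257 FPKM and PMM2 from 11.2 ± 0.552 to 6.59 ± 0.192 FPKM (limma adjusted p = 0.0183 and 0.0195). Neither was called when any DMSO library or TSN 1 was dropped, nor after quantile normalization or with no filter on low values, and 1 gene of the list was lower with the length and GC trends removed. Limma called 0 genes among the 2 tested other glycolytic isozymes (1 lower at an unadjusted p under 0.05), the 5 other sugar and lactate transporters (0 at that level) and the 7 genes of the NADH shuttles (2 lower at that level). The mitochondrial phosphatase PGAM5 stood at 67.0 ± 3.83 and 52.0 ± 3.56 FPKM in DMSO and TSN (limma adjusted p = 0.103), and the ADP-dependent glucokinase ADPGK at 43.6 ± 2.87 and 32.9 ± 8.70 FPKM (limma adjusted p = 0.235), both below DMSO in every TSN library. BSG, the chaperone of lactate carriers, overlapped at 374.7 ± 55.0 and 369.1 ± 116.7 FPKM, and EMB, its relative, was at 14.5 ± 1.48 and 18.2 ± 3.99 FPKM. The malate dehydrogenases MDH2 (345.3 ± 41.0 and 366.8 ± 105.5 FPKM) and MDH1 (88.9 ± 6.49 and 106.6 ± 16.5 FPKM) did not pass (limma adjusted p = 0.896 and 0.339).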

How the data were processed

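RNA-seq values of 6 libraries (3 DMSO, 3 TSN) came from 1 table that the authors deposited as FPKM, a unit read from its naming and values. The submitters' processing notes name GRCh38 and DESeq2 1.26.0. The aligner, counter and annotation were not given in the sources used here. Depth was estimated from low FPKM of genes with a single exon, of which 94.9% to 95.6% were whole multiples of 1 step within a tolerance of 0.1. No count test was run, since the table holds no counts. limma 3.58.1 (R 4.3.3) was run on log2(FPKM + 1) with variance trend and robust moderation. It covered 11440 genes that reached 1 FPKM in 3 or more libraries, with Benjamini-Hochberg adjustment over all of them. The fit was tested on simulated data. A pseudocount of 1 makes fold changes of low genes too small. P-values measure only the spread between these samples. GENCODE 29 gave places, lengths and overlaps (93.7% of identifiers matched) and RefSeq the promoters. Members, the 8 lists and motifs were chosen with earlier results of these data known. Named were all members and, in each list, at most 3 genes per direction by ascending adjusted p, or the 2 with the highest mean where no gene passed. 1 gene that this rule names is not reported here. VEGFA, HIF1A, EGLN2 and the marker genes ITGAM, CD33, HOXA9, MEIS1, ITGA2B, NKG7, CD3D and CD3E were named after their values were seen. Python 3.11.15 with pandas 2.3.3, numpy 2.4.6 and matplotlib 3.10.9 made tables and figures. Alternatives covered pseudocounts, filters, scaling, moderation, a replicate block, libraries left out, and removal of each library's trend over exon length and GC content (splines, 5 degrees of freedom). Counts for the lists under them were added after the data were seen.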

Additional observations from a re-analysis of the deposited data

How the results depend on the processing

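The members' median log2 fold change kept its sign under every alternative run, from 0.45 to 0.60. The count of members that rose, 5 with all libraries, was 12 after median scaling, 12 after quantile normalization, 13 with trends over exon length and GC content removed and 16 without replicate 3 of both groups. Dropping single libraries gave 3 to 14, the lowest for DMSO 1, DMSO 2 or TSN 1 and the highest for TSN 3. The count that fell was 0, and was 1 (BPGM) under those 4 settings and with plain moderation, and 0 to 1 with 1 library left out. Over all genes, 882 rose and 824 fell. Median scaling gave 1123 and 860, and quantile normalization 1172 and 1080. No filter gave 523 and 254, a mean of at least 5 FPKM 446 and 556, and trend removal 1680 and 1723. Leaving out both replicates 3 gave 1712 and 1587, and single libraries 203 to 1481 and 56 to 1342. Calls in the higher direction were 51.7% of all calls. Over the alternatives with calls they ran from 44.5% with a mean of at least 5 FPKM to 78.4% without DMSO 2. They were 67.3% with no filter, 46% without TSN 2 and 49.4% with trends removed. Fold changes that changed sign were those of genes not called: SLC16A3 (0.03) at -0.0067 after quantile normalization, -0.056 after trend removal, -0.32 without both replicates 3 and -0.15 to 0.20 with 1 library left out; HK2 (-0.17) at 0.34 without both and -0.47 to 0.18; LDHB (0.48) at -0.19 without both; and PGM2 (0.04) at -0.14 to 0.32. The cause was not tested.

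With the replicate number as a replicate block, limma called 0 genes higher and 0 lower, and 0 members (1053 and 1068 genes and 7 and 1 members at an unadjusted p under 0.05). Deviations of same-numbered libraries from their group means correlated at -0.32, -0.65 and -0.83. Between libraries of different numbers the correlations ran from -0.76 to 0.87. Deviations within a group sum to 0 by construction, so these values cannot tell whether same-numbered samples were handled together. The labels do not say either, and the block fit stands beside the main fit. The 5 members left out by the filter, LDHA among them, were tested with no filter, and none was called.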
